A study of Mus musculus with 60 samples.

Results

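The genes described here are the heat shock proteins and their DnaJ cochaperones. They were chosen by symbol alone, as every row of the deposited tables named as an Hspa, Hspb, Hspd, Hspe, Hsph or Hsp90 gene, or as a numbered Dnaja, Dnajb or Dnajc gene, which gave 72 of 21999 genes. The libraries came from 3 brain regions (prefrontal cortex, striatum, hippocampus) of 20 mice, 5 in each of 4 groups, with 1 RNA library per mouse and region. The groups were wild-type (WT) mice on the normal diet, WT mice on the vitamin B6 (VB6)-lacking diet, and mice with a Glo1 knockout (KO) on each of these diets. The normal diet held 1.4 mg and the lacking diet 5 µg of VB6 per 100 g of pellets, and the mice ate them between 8 and 12 weeks of age. Every KO library was labelled as batch 1 and every WT library as batch 2, so that genotype and batch cannot be told apart. The strain, sex and the construction of the knockout were not given in the sources used here.

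HSP70 proteins bind unfolded stretches of other proteins in a cycle driven by ATP. DnaJ proteins, also called HSP40s, deliver clients to HSP70 and start the hydrolysis of ATP, while HSP110 proteins release the spent nucleotide; HSP90 takes over clients such as kinases and steroid receptors at a later step of folding. Under heat or proteotoxic stress, heat shock factor 1 raises the transcription of a subset of these genes, and stress in the endoplasmic reticulum (ER) raises another subset through the unfolded protein response. In neurons, constitutive HSP70 works with the DnaJ proteins auxilin and cysteine string protein at synaptic vesicles. Glo1 encodes glyoxalase 1, which detoxifies methylglyoxal, a reactive by-product of glycolysis that modifies proteins.

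Library totals were between 7640047 and 13928265 counts, and the RNA integrity number (RIN) was between 7.6 and 9.3. Glo1 itself, as the check of the genotype labels, had 0 to 10 counts in the 30 KO libraries and 299 to 734 in the 30 WT libraries. The 72 chaperone genes together took between 0.969% and 1.2% of the counts of a library. At least 1 count was found for 70 of them, and 61 prefrontal, 60 striatal and 60 hippocampal genes passed the filter on low counts. Dnajb8 and Dnajc5g had 0 counts in all 60 libraries, which allows up to 0.00463 CPM (counts scaled to library size) over the pooled libraries, as far as counting error goes.

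The family held some of the most abundant messenger RNAs of these tissues. Levels between genes are given as RPKM, the authors' counts scaled by gene length and library size. A median of at least 10 RPKM over the 60 libraries was reached by 39 of the 72 genes, or 54.2%, against 24.0% of the 18514 genes with a count. The 5 highest were Hsp90ab1, the constitutive cytosolic HSP90, with a median of 487 RPKM (421 to 548), Hsp90aa1, its stress-inducible partner, with 295 (219 to 424), Hspa8, the constitutive HSP70 of the cytosol, with 217 (156.5 to 267.5), Hsp90b1, the HSP90 of the ER, with 186 (156 to 260.4), and Dnaja2, a cytosolic DnaJ protein, with 104 (83.1 to 123). All 3 HSP90 genes and all 3 HSP110 genes (Hspa4, Hspa4l, Hsph1) lay above 10 RPKM, while the 8 small heat shock protein genes, counting Hspb11 by its name, had a highest median of 7.21 RPKM. Inducible HSP70 was low in these counts: Hspa1b had a median of 1.55 RPKM and Hspa1a of 0.960 RPKM. Their levels rest on medians of 46 and 30 counts per library. Much of their sequence, and of that of Hsp90aa1, is shared with other loci, as given below. The effect of this sharing on their RPKM was not tested. Apart from the 2 genes without counts, the lowest medians were those of Dnajc22, Dnajb7, Dnajc5b, Hspb2 and Hspb9, all at 0 RPKM, with between 1 and 46 counts over all libraries.

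**Figure D1:**
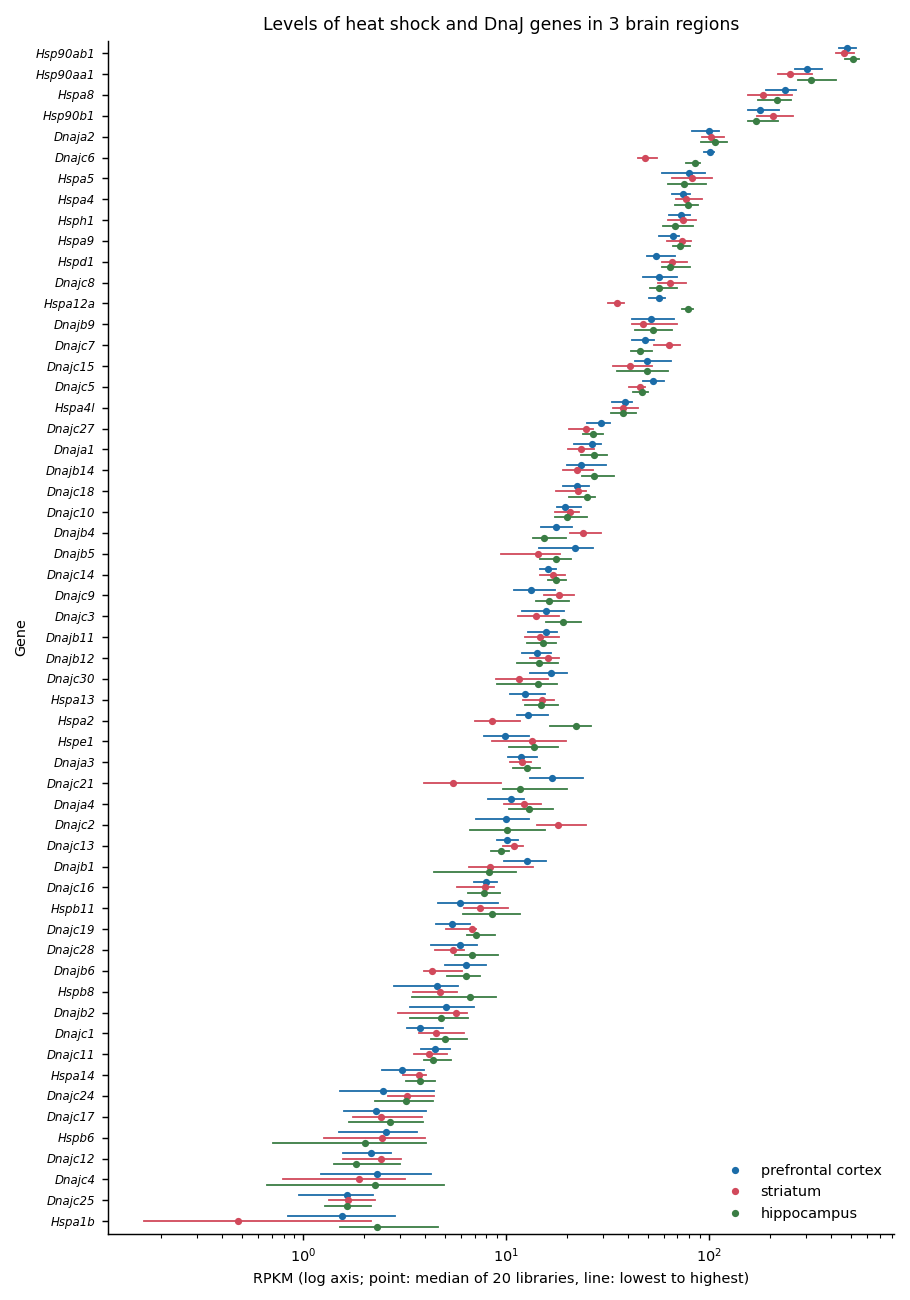
RPKM on a log axis for the 57 heat shock and DnaJ genes with a median of at least 1 RPKM, ordered by that median; points are medians of 20 libraries per region and lines run from the lowest to the highest library. Hsp90ab1 stands at the top with a median of 487 RPKM and Hspa1b at the bottom with 1.55 RPKM.

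Counts of several of these genes cannot be assigned to 1 locus with confidence, because their transcripts share 75-base stretches, the read length, with other loci in the GENCODE annotation of GRCm38 (mm10). The shared part was 61.7% of the stretches of Hspa1a and 55.8% of Hspa1b, mostly with each other, and 50.4% of Hsp90aa1, 47.3% of Hspb1, 43.3% of Hspa8 and 33.7% of Hspd1, mostly with pseudogenes. It was 51.45% for Dnaja4, which overlaps Wdr61 on the opposite strand; strand use in the counting was not given in the sources used here. The intronless Hspa1a (chr17:34969359-34972156) and Hspa1b (chr17:34956429-34959238) are near-identical copies, and their upstream sequence is duplicated too. These windows are shown because both genes were lower in the striatum than in the prefrontal cortex, as described below. They are the 250 bases before each transcription start on the minus strand, from RefSeq on GRCm38.p6 (chr17:34972157-34972406 for Hspa1a and chr17:34959239-34959488 for Hspa1b), with the single match to the paired heat shock motif, GAANNTTC or TTCNNGAA, in capitals.
Hspa1a: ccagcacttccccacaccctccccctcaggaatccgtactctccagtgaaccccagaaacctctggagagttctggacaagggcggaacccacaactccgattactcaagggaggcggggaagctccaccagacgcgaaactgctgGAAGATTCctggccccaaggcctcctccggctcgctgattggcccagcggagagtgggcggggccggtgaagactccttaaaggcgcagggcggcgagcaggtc
Hspa1b: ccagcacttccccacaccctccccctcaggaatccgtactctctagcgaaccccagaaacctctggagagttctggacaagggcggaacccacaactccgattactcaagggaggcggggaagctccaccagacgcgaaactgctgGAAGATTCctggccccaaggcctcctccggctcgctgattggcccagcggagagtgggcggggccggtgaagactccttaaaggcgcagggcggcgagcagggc
The copies differed at 3 of 250 positions (98.8% identity): C44T, T47C and T249G, with the base of Hspa1a given before the position, counted from the 5′ end of the window, and that of Hspa1b after it. The marked motif lies 104 to 97 bases before the start in both.

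Of the 72 genes, 58 had an entry in the RefSeq promoter table. The paired heat shock motif, searched as letters on both strands, was in 16 of the 75 windows of these genes, which belong to 14 genes, and in 12.8% of all 32851 promoters of the same length. The longer run of GAA, TTC and GAA, or TTC, GAA and TTC, each 2 bases apart, which contains the pair, was in 0.466% of all promoters and in those of Dnajb6, Hspd1 and Hspe1. The stretch below from Hspe1 is also that of Hspd1, since these genes for the mitochondrial chaperonin and its lid are read in opposite directions from 1 shared start region. Hsph1 encodes the inducible HSP110, Dnaja1 a cytosolic DnaJ protein and Hspb1 the small heat shock protein HSP27. Each line gives 30 bases with matches in capitals. The Hspb1 window held 2 matches, and only that nearer the start is shown. Dnaja1 also had windows without a match.
Hspe1, chr1:55088053-55088082, plus strand: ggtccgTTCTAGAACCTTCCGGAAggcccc
Hsph1, chr5:149636351-149636380, minus strand: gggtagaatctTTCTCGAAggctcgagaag
Dnaja1, chr4:40722333-40722362, plus strand: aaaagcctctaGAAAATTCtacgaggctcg
Hspb1, chr5:135887811-135887840, plus strand: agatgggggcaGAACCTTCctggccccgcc
The ER stress element, CCAAT and CCACG with 9 bases of any kind between them, was in 0.113% of all promoters and in those of 3 chaperone genes: Hspa5, the HSP70 of the ER known as BiP, Hsp90b1 and Dnajc3, an ER DnaJ protein that restrains the kinase PERK.
Hspa5, chr2:34772020-34772049, plus strand: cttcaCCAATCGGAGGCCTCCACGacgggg
Hsp90b1, chr10:86705632-86705661, minus strand: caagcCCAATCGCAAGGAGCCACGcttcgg
Hsp90b1, chr10:86705527-86705556, minus strand: gagtgCGTGGTGAGGCACGATTGGtgagtt
Dnajc3, chr14:118937822-118937851, plus strand: cacaaCCAATCAGCGCCAACCACGacccgg
A match describes these letters only and was not tested as a binding site.

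Levels of many of these genes differed between regions. Over all 4 groups, 37 of the 62 tested chaperone genes, or 59.7%, differed between striatum and prefrontal cortex, against 69.9% of all genes tested; 20 were higher in the striatum (35.9% of all genes were) and 17 lower (34% of all genes). Between hippocampus and prefrontal cortex 33 differed (53.2%, against 59.3% of all genes), 19 higher in the hippocampus (30.2% of all genes) and 14 lower (29.1%). Between hippocampus and striatum 36 differed (58.1%, against 66.4%), 18 higher in the hippocampus (32.9%) and 18 lower (33.6%). The median of the fitted log2 differences, in absolute value, was 0.22 for the chaperone genes and 0.30 for all genes in striatum against prefrontal cortex, 0.14 and 0.21 in hippocampus against prefrontal cortex, and 0.18 and 0.26 in hippocampus against striatum. A call here is an adjusted p below 0.05 in the quasi-likelihood test of edgeR, with Benjamini-Hochberg adjustment over all genes tested, and p-values measure the spread between these mice. Regions were dissected from the same mice; a fit with the mouse as a block called 37, 35 and 36 genes.

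The DnaJ proteins of synaptic vesicles were highest in the prefrontal cortex. Dnajc6, which encodes auxilin, the partner with which HSP70 strips clathrin from vesicles (chr4:101496648-101642799), lay between 94.5 and 106 RPKM in prefrontal libraries (median 101), 44.9 and 55.4 in striatal ones (48.6), and 76.75 and 90.8 in hippocampal ones (85.1). None of these 3 ranges overlapped. The Dnajc6 log2 difference was -1.02 (SE 0.0295, edgeR adjusted p = 2.25e-38) for striatum against prefrontal cortex and -0.32 (SE 0.0291, adjusted p = 1.22e-14) for hippocampus against prefrontal cortex. Dnajc5, the cysteine string protein, had medians of 52.9 RPKM in prefrontal libraries, 45.9 in striatal ones and 46.8 in hippocampal ones, with log2 differences of -0.21 (edgeR adjusted p = 2.58e-10) and -0.23 (adjusted p = 1.56e-11) from the prefrontal cortex. Hspa8, the HSP70 of this reaction, was lower in both regions too, at -0.28 in the striatum (edgeR adjusted p = 2.35e-08) and -0.15 in the hippocampus (adjusted p = 0.00102); the hippocampal call was lost on library totals without TMM factors (adjusted p = 0.0942) and in limma (adjusted p = 0.0968). Of the 5 tested genes in the list of synaptic and clathrin-uncoating members (Hspa8, Dnajc5, Dnajc6, Dnajb2, Dnajb6), 4 were lower in the striatum (34% of all genes were) and 3 in the hippocampus (29.1%) than in the prefrontal cortex, and 0 were higher, with medians of -0.28 and -0.15 against 0.01 for all genes in both comparisons. Dnajb6, which keeps aggregation-prone proteins soluble, was lower in the striatum, at -0.46 (edgeR adjusted p = 1.80e-10), while its hippocampal difference of -0.07 did not pass (adjusted p = 0.331).

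The HSP70 genes fell into several patterns. Hspa12a, a distant HSP70 relative (chr19:58795750-58943672), was lowest in the striatum, with 31.9 to 38.4 RPKM (median 35.3), higher in the prefrontal cortex, with 50.5 to 60.7 (57.0), and highest in the hippocampus, with 73.4 to 83.2 (78.9). Hspa2, best known from the testis (chr12:76403812-76406938), kept the same order, with 7.04 to 11.7 RPKM (8.55), 11.3 to 16.0 (12.9) and 16.5 to 26.1 (22.1). The hippocampus did not overlap with either other region in these genes. Against the striatum it was 2.12-fold higher for Hspa12a (log2 1.08, SE 0.0297, edgeR adjusted p = 1.42e-39) and 2.35-fold higher for Hspa2 (log2 1.23, SE 0.0507, adjusted p = 1.50e-30).

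Inducible HSP70 was lowest in the striatum. Hspa1b lay between 0.846 and 2.84 RPKM in prefrontal libraries (median 1.55), 0.164 and 2.15 in striatal ones (0.477), and 1.52 and 4.60 in hippocampal ones (2.30), and the ranges overlapped. The Hspa1b log2 difference was -1.53 (SE 0.158, edgeR adjusted p = 4.32e-13) for striatum against prefrontal cortex and 0.50 (SE 0.134, adjusted p = 0.00109) for hippocampus against prefrontal cortex. Against the striatum the hippocampus was 4.09-fold higher (log2 2.03, SE 0.153, edgeR adjusted p = 3.13e-18). Striatal libraries held few reads, with 4 to 66 counts of Hspa1b and 4 to 41 of Hspa1a. Hspa1a, whose reads are partly shared, had striatal and hippocampal differences from the prefrontal cortex of -1.12 (edgeR adjusted p = 7.54e-09) and 0.31 (adjusted p = 0.0558); the hippocampal one passed with the mouse as a block (log2 0.29, adjusted p = 0.0302). Hspa1l, next to Hspa1a (chr17:34972703-34979228), had at most 11 counts in a library and was not tested. The constitutive HSP70 of the mitochondrion, Hspa9, had medians of 66.2, 73.4 and 72.05 RPKM in prefrontal cortex, striatum and hippocampus. It was higher than in the prefrontal cortex by a log2 difference of 0.18 in the striatum (edgeR adjusted p = 6.40e-09) and of 0.09 in the hippocampus (adjusted p = 0.00206).

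Inducible genes differed in their regional order. Dnajb1, the main inducible DnaJ partner of HSP70, had medians of 12.7 RPKM in prefrontal libraries (9.72 to 15.7), 8.33 in striatal ones (6.59 to 13.5) and 8.26 in hippocampal ones (4.41 to 11.2). It was lower than in the prefrontal cortex by a log2 difference of -0.50 in the striatum (SE 0.0630, edgeR adjusted p = 2.74e-10). In the hippocampus the difference from the prefrontal cortex was -0.68 (SE 0.0634, edgeR adjusted p = 2.13e-14). The hippocampus, which had the most Hspa1b, thus had the lowest fitted Dnajb1 level, although its RPKM median was close to that of the striatum. Dnajb4, another cytosolic DnaJ protein, was highest in the striatum, with 20.8 to 29.4 RPKM there, 14.85 to 21.2 in the prefrontal cortex and 13.6 to 19.8 in the hippocampus. The striatal and hippocampal ranges of Dnajb4 did not overlap (log2 difference -0.71, SE 0.0495, edgeR adjusted p = 9.95e-20). Hsph1 medians were 73.1, 74.7 and 67.9 RPKM in prefrontal cortex, striatum and hippocampus, and the hippocampus was lower than the striatum by a log2 difference of -0.18 (edgeR adjusted p = 0.000519). Both genes of the mitochondrial chaperonin were higher in the other regions: against the prefrontal cortex, Hspd1 differed by 0.24 in the striatum (edgeR adjusted p = 7.65e-06) and 0.21 in the hippocampus (adjusted p = 0.00013), and Hspe1 by 0.45 (adjusted p = 8.72e-07) and 0.36 (adjusted p = 6.57e-05). The list of 13 inducible members held Hspa1a, Hspa1b, Hspa8, Hsph1, Hspa4l, Hspb1, Hsp90aa1, Hsp90ab1, Dnaja1, Dnajb1, Dnajb4, Hspd1 and Hspe1. It includes Hspa8 and Hsp90ab1, named above as constitutive, so its counts do not describe stress-inducible genes alone. Of these, 3 were higher and 6 lower in the striatum than in the prefrontal cortex (35.9% and 34% of all genes). In the hippocampus 3 were higher and 4 lower, near the 30.2% and 29.1% of all genes.

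Among the HSP90 genes, Hsp90ab1 held medians of 480 RPKM in prefrontal, 466 in striatal and 511 in hippocampal libraries. Its log2 differences in edgeR were -0.00, 0.02 and 0.02 in the 3 comparisons and did not pass, and those with the hippocampus passed on library totals without TMM factors, where they were 0.08 against the prefrontal cortex (adjusted p = 0.00381) and 0.10 against the striatum (adjusted p = 0.000113). Hsp90aa1 was lower in the striatum than in the prefrontal cortex (log2 -0.24, edgeR adjusted p = 8.84e-05), and Hsp90b1 was higher there (log2 0.23, adjusted p = 0.000178). Of the genes with an ER stress element, Hsp90b1 was thus highest in the striatum, with a median of 206.5 RPKM, and Dnajc3 in the hippocampus, with 19.2 RPKM against 15.7 in the prefrontal cortex (log2 0.26, edgeR adjusted p = 3.96e-05). Hspa5 medians were 79.4, 82.6 and 75.8 RPKM in prefrontal cortex, striatum and hippocampus. Of 13 tested ER members, 4 were higher and 0 lower in the striatum than in the prefrontal cortex (35.9% and 34% of all genes; list median 0.05). In the hippocampus 5 were higher and 1 lower (30.2% and 29.1% of all genes), with a list median of -0.02, opposite in sign to most of the calls.

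A pair of DnaJ genes with ribosome-linked proteins differed in opposite directions. Dnajc21, whose protein takes part in the maturation of the large ribosomal subunit (chr15:10446763-10470568), lay between 13.1 and 24.1 RPKM in prefrontal libraries (median 16.9), 3.93 and 9.48 in striatal ones (5.51), and 9.66 and 20.1 in hippocampal ones (11.7). The striatum overlapped with neither other region. The Dnajc21 log2 difference was -1.60 (SE 0.0961, edgeR adjusted p = 1.365e-22) for striatum against prefrontal cortex. Dnajc2, which binds ribosomes and assists nascent chains (chr5:21757266-21785264), lay between 7.14 and 13.01 RPKM in prefrontal libraries (9.97), 14.2 and 24.7 in striatal ones (18.0), and 6.67 and 15.5 in hippocampal ones (10.1), with a log2 difference of 0.88 (SE 0.0874, edgeR adjusted p = 1.44e-13) for striatum against prefrontal cortex. Dnajc7, which links HSP70 and HSP90, was also highest in the striatum, with a median of 63.4 RPKM against 48.5 and 45.5, and did not overlap with the hippocampus.

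The small heat shock protein genes were low, and 1 of them was highest in the prefrontal cortex. Hspb3, a muscle-enriched member (chr13:113662896-113663676), had 5 to 20 counts per prefrontal library, 0 to 6 per striatal and 0 to 5 per hippocampal library, or medians of 1.21, 0.119 and 0.226 RPKM. These counts overlapped by a little, while the RPKM of Hspb3 were narrowly apart, with a lowest prefrontal value of 0.622 against highest values of 0.593 in the striatum and 0.585 in the hippocampus. Its log2 differences from the prefrontal cortex were -2.79 (SE 0.304, edgeR adjusted p = 3.20e-12) and -2.65 (SE 0.294, adjusted p = 1.00e-11), fitted on very few counts. Hspb8, a partner of BAG3 in autophagy, was higher in the hippocampus, with a median of 6.65 RPKM against 4.57 in the prefrontal cortex (log2 0.42, edgeR adjusted p = 2.36e-05). Hspb1 had between 0 and 15 counts per library and did not pass in any region comparison. Ranges of 20 libraries that did not overlap were found, among the called genes, for 5 chaperone genes between striatum and prefrontal cortex (18.3% of all genes tested), 4 between hippocampus and prefrontal cortex (10.9%) and 6 between hippocampus and striatum (16.2%).

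**Figure D2:**
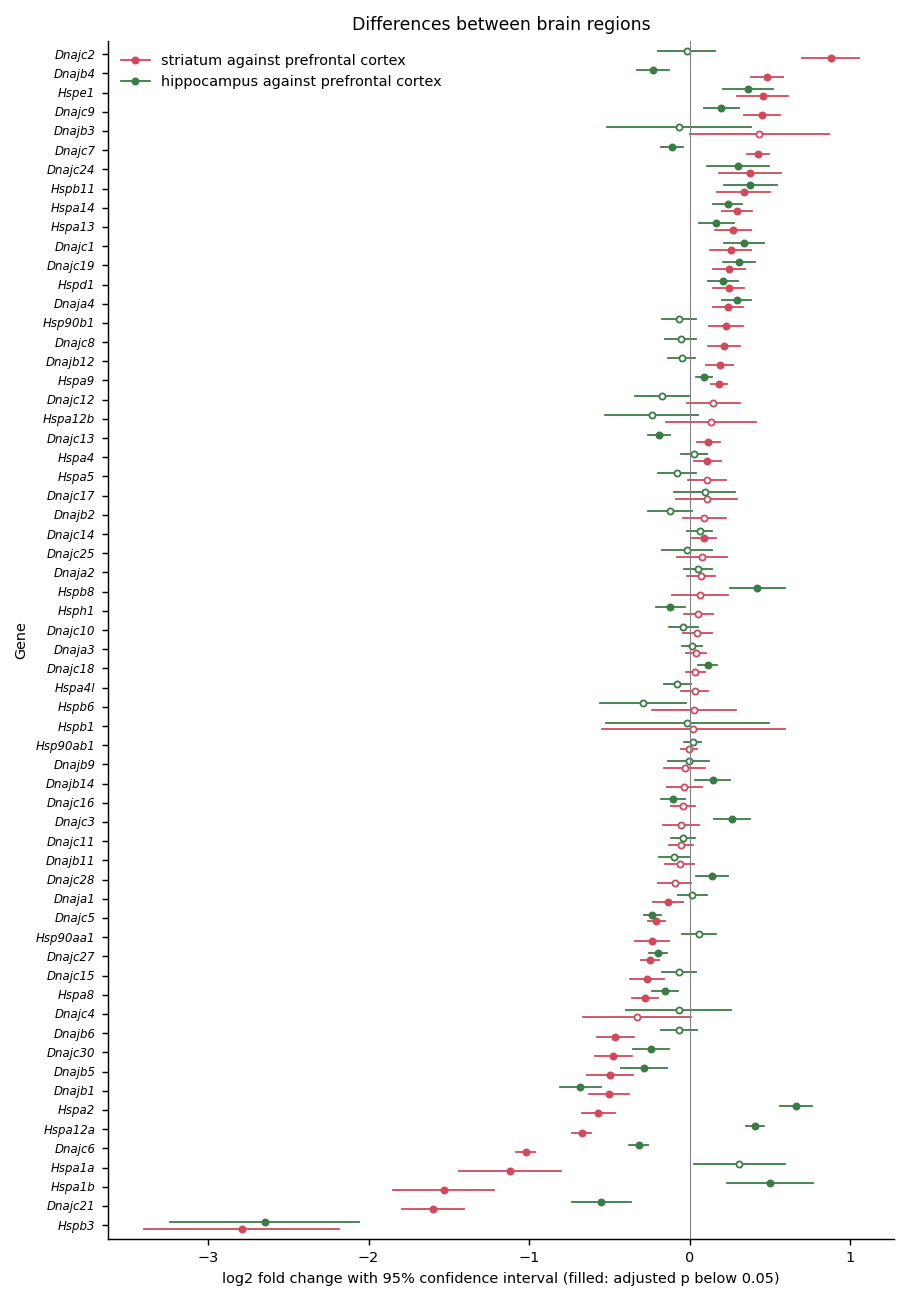
Fitted log2 fold changes of all 62 tested chaperone genes, with 95% confidence intervals, for striatum (red) and hippocampus (green) against prefrontal cortex; filled points have an adjusted p below 0.05. Dnajc2 lies at the upper end with 0.88 in the striatum, Hspb3 at the lower end with -2.79, and Hspa2 and Hspa12a have opposite signs in the 2 comparisons.

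**Figure D3:**
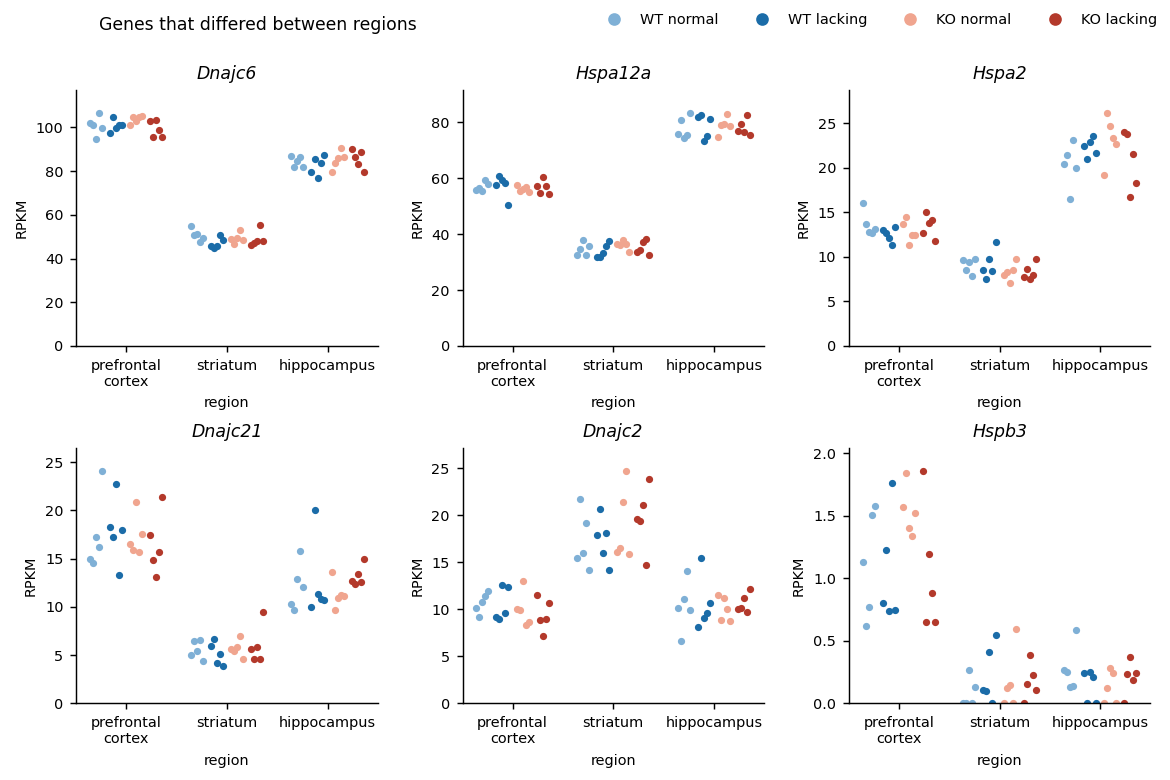
RPKM in every library for 6 genes with regional differences, with 5 libraries for each genotype and diet, coloured by group. Dnajc6 falls into 3 separate bands (44.9 to 55.4, 76.75 to 90.8 and 94.5 to 106 RPKM).

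Cell type markers moved with region. The summed level of 6 of 6 oligodendrocyte markers was 1596 to 3175 CPM in prefrontal, 5118 to 6832 in striatal and 3745 to 6381 in hippocampal libraries. That of 6 of 6 general neuronal markers was 10310 to 12320, 6436 to 8302 and 7517 to 8824 CPM, and that of 8 of 8 markers of striatal medium spiny neurons was 158 to 192, 6427 to 8191 and 60.3 to 106 CPM. Every marker of these lists was detected in each region. In such bulk tissue, fewer cells of a type and less RNA per cell cannot be told apart. The part of these markers in the regional differences of the chaperone genes was not tested.

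Other genes of the pathway are set here beside the shares of all genes, which were 35.9% higher and 34% lower in the striatum than in the prefrontal cortex and 30.2% higher and 29.1% lower in the hippocampus. Of 16 tested HSP90 cochaperones, 3 were higher and 7 lower in the striatum (list median -0.09), against 5 and 2 in the hippocampus (0.01). Fkbp5, a cochaperone of the glucocorticoid receptor, was higher in the striatum (log2 1.01, edgeR adjusted p = 1.55e-25) and in the hippocampus (log2 1.27, adjusted p = 5.17e-30). Of 14 exchange factors and partners of HSP70, 5 were higher and 5 lower in the striatum (-0.05), against 3 and 7 in the hippocampus (-0.12). Bag3, the stress-inducible exchange factor that pairs with Hspb8, was higher in the hippocampus, where Hspb8 was higher too (log2 0.80, edgeR adjusted p = 3.65e-13). Hsf1, which drives the heat shock response, passed in no region comparison, with log2 differences from -0.10 to 0.08. Of 7 tested subunits of the TRiC chaperonin, 2 were higher and 2 lower in the striatum (-0.03), against 3 and 0 in the hippocampus (0.07). Of 17 genes of the unfolded protein response, 6 were higher and 5 lower in the striatum (0.00), against 0 and 10 in the hippocampus (-0.16).

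No heat shock or DnaJ gene passed the threshold for genotype or diet in any region; these comparisons hold different mice within a region. For KO against WT over both diets, edgeR called 0 of 61 prefrontal chaperone genes (0.673% of all genes were called, 0.121% higher and 0.552% lower in KO), 0 of 60 striatal ones (0.203%; 0.0751% higher, 0.128% lower) and 0 of 60 hippocampal ones (0.164%; 0.0523% higher, 0.112% lower). At an unadjusted p below 0.05 the counts were 7, 2 and 1 (14.1%, 5.78% and 4.24% of all genes). DESeq2 called 1, 0 and 0, and limma called 0 in each. The 95% interval of the log2 difference lay within 1.5-fold in either direction for 57, 55 and 57 of these genes, and within 2-fold for 61, 59 and 60.

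The closest to a genotype difference were 3 DnaJ genes in the prefrontal cortex. Dnaja4, a cytosolic DnaJ protein, lay between 8.19 and 11.3 RPKM in WT mice (median 9.65, n = 10) and 10.5 and 12.3 in KO mice (11.1, n = 10), and the groups overlapped. The Dnaja4 log2 difference was 0.20 (SE 0.0568, edgeR adjusted p = 0.0947). Dnajb9, an ER DnaJ protein that helps degrade misfolded proteins, lay between 44.6 and 67.3 RPKM in WT mice (58.1) and 41.9 and 60.01 in KO mice (45.5), with a log2 difference of -0.26 (SE 0.0769, edgeR adjusted p = 0.110). Dnajc8, a splicing-associated DnaJ protein, lay between 51.5 and 70.01 RPKM (60.6) and 47.2 and 60.6 (53.8), with -0.20 (SE 0.0626, adjusted p = 0.135). Without WT mouse 226 all 3 passed in edgeR (adjusted p = 0.0245, 0.0242 and 0.0348). That was the highest count on leaving out 1 mouse, where counts lay between 0 and 3. Dnaja4 passed in DESeq2 (adjusted p = 0.0311) and Dnajc8 in edgeR with RIN as a covariate (adjusted p = 0.0421). No chaperone gene passed without TMM factors, in limma or without the filter on low counts. Some cell type markers moved with genotype in this region. The summed level of 6 of 6 astrocyte markers had group medians of 2036 and 2035 CPM in KO mice (1901 to 2415 over both diets) against 2560 and 2486 CPM in WT mice (2105 to 2816), on the lacking and the normal diet. That of 6 of 6 microglial markers had medians of 235.5 and 242.7 CPM (210.4 to 263.7) against 276.1 and 264.4 CPM (248.2 to 290.5). Their part in the values of these DnaJ genes was not tested. Some marker sums differed between genotypes in the other regions too. Striatal microglial medians were 264.4 and 255.2 CPM in KO mice against 295.6 and 293.1 in WT mice, on the lacking and the normal diet. Hippocampal oligodendrocyte medians were 4266 and 3801 CPM against 5476 and 5367. The ranges of the genotypes overlapped in both, and the part of these markers in the chaperone values there was not tested.

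In the striatum the smallest p-values for genotype were those of Hsph1, with a log2 difference of 0.14 (edgeR adjusted p = 0.74), Dnajc30, a mitochondrial DnaJ protein, with -0.19 (adjusted p = 0.74), and Hspa4, with 0.13 (adjusted p = 0.74). Striatal Hsph1 lay between 62.9 and 86.2 RPKM in WT mice and 66.03 and 86.03 in KO mice. In the hippocampus they were Dnajc15, a DnaJ protein of the mitochondrial inner membrane, with 0.20, Dnajc1 with -0.14 and Hspa1b with 0.27, all at an edgeR adjusted p of 1.00. Across the list of inducible members, 11 of 12 tested genes had a positive fitted difference in the KO striatum, with a median of 0.13 against -0.00 for all genes, and none of them passed. That count was 8 of 12 without the KO mice 267 and 268, described below, with a median of 0.10.

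Several chaperone genes lie on the chromosome of Glo1 (chr17:30592861-30612659). Hspa1b and Hspa1a lie 4.34 and 4.36 Mb from it, Hspa1l 4.36 Mb and Hsp90ab1 (chr17:45567778-45573261) 14.96 Mb. Hspa1a had log2 differences for KO against WT of 0.13, 0.22 and -0.07 in prefrontal cortex, striatum and hippocampus, and Hspa1b of 0.09, 0.43 and 0.27. Hsp90ab1 had 0.00 in the prefrontal cortex, with 440.5 to 522 RPKM in WT and 460.1 to 529 in KO mice. None of these passed.

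For the VB6-lacking against the normal diet over both genotypes, edgeR again called 0 of 61, 0 of 60 and 0 of 60 chaperone genes in prefrontal cortex, striatum and hippocampus (0% of all genes in each). At an unadjusted p below 0.05 there were 2, 5 and 1 (3.28%, 3.06% and 2.15% of all genes), and DESeq2 and limma called 0 in each region. In the prefrontal cortex the smallest p-values belonged to Dnajc28 (log2 -0.18), Dnajb11 (-0.13) and Hspa14 (0.14), each at an edgeR adjusted p of 1.00. In the striatum Hspa8 lay between 157.3 and 257.4 RPKM on the normal diet (median 204, n = 10) and 156.5 and 209 on the lacking diet (175, n = 10). The diets overlapped, and the Hspa8 log2 difference was -0.18 (SE 0.0704, edgeR adjusted p = 1.00); Hsph1 followed with -0.15 and Dnajc17 with 0.28. In the hippocampus Dnajb1 lay between 7.92 and 11.2 RPKM on the normal diet (8.91) and 4.41 and 9.41 on the lacking diet (7.77), with -0.22 (SE 0.0834, edgeR adjusted p = 0.999), followed by Dnajc9 with 0.11 and Dnajb12 with 0.11.

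Over both genotypes, fitted signs for the list of inducible members, which also holds Hspa8 and Hsp90ab1, leaned downward on the lacking diet. None of them passed. The difference was negative for 12 of 12 tested genes of this list in prefrontal libraries (median -0.07), 11 of 12 in striatal (-0.12) and 12 of 12 in hippocampal ones (-0.02). All genes had medians of 0.00, -0.00 and -0.00. Without mice 267 and 268 these counts were 10, 10 and 6 of 12, with medians of -0.05, -0.10 and 0.00. Leaving out a single mouse gave 10 to 12 for prefrontal, 11 to 12 for striatal and 6 to 12 for hippocampal libraries, with 6 without mouse 267 or without mouse 286. The genes of the list share libraries, and the counts carry no test. Over all 61 tested chaperone genes in the prefrontal cortex, 15 were higher on the lacking diet, or 24.6%, against 50.2% of all genes. The count was 23 of 60 in the striatum (38.3% against 49.7%) and 27 of 60 in the hippocampus (45% against 49%), with medians of -0.03 and -0.01. With each genotype apart, the hippocampal count was 20 of 60 in WT mice (33.3% against 48.4%, median -0.05). In KO mice it was 35 of 60 there (58.3% against 47.3%, median 0.04), opposite in sign. Prefrontal counts were 25 of 61 in WT (41% against 51.7%) and 17 of 61 in KO mice (27.9% against 49.5%). Striatal ones were 22 of 60 (36.7% against 49.6%) and 26 of 60 (43.3% against 48.9%).

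**Figure D4:**
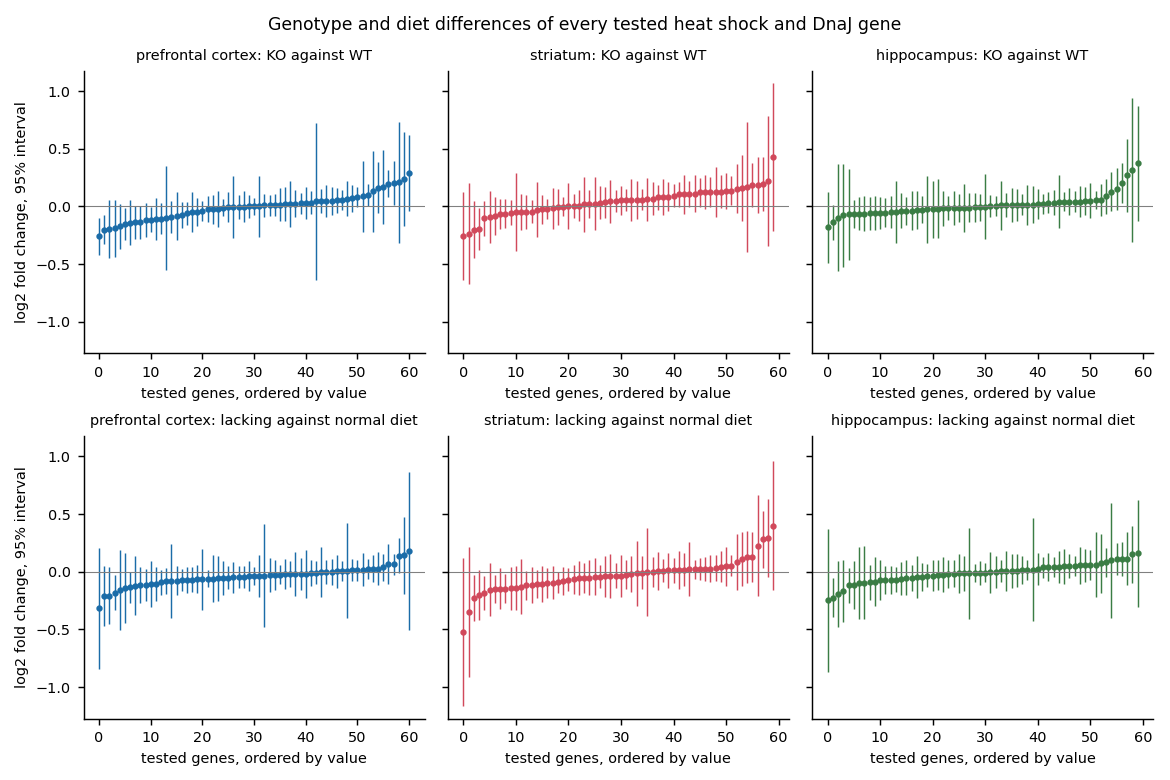
Fitted log2 fold changes with 95% confidence intervals for every tested heat shock and DnaJ gene, ordered by value, for genotype (upper row) and diet (lower row) in each region. The fitted values run from -0.26 to 0.43 for genotype and from -0.52 to 0.40 for diet, and none has an adjusted p below 0.05 in edgeR.

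Within genotypes, the diet comparison called 0 chaperone genes in WT and 0 in KO mice in all 3 regions (0% of all genes in each). Unadjusted p-values fell below 0.05 for 2, 5 and 3 genes in WT mice in prefrontal cortex, striatum and hippocampus (2.27%, 2.91% and 4.03% of all genes) and for 3, 2 and 5 in KO mice (5.19%, 1.68% and 6.56%). In KO mice the smallest p-value was that of Hspa1b in the prefrontal cortex (log2 -0.51, followed by Hspa5 at -0.22 and Hsp90ab1 at -0.11) and in the striatum (-1.14, followed by Hsph1 at -0.18 and Dnajb1 at -0.28). In the hippocampus it was that of Dnajb1 (-0.28), followed by Hspb8 (-0.43) and Dnajc8 (0.18). In WT mice the smallest were those of Dnajc28 (-0.26), Dnajc17 (-0.49) and Hspa14 (0.17) in the prefrontal cortex, Dnajc17 (0.45), Hspb11 (-0.33) and Dnajc4 (0.66) in the striatum, and Dnajc12 (-0.46), Hspe1 (-0.32) and Dnajb12 (0.21) in the hippocampus. The edgeR adjusted p-values of these genes lay between 0.719 and 1.00. Dnajc17 took opposite signs in the 2 regions of WT mice where it was named.

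KO mice on the lacking diet were also set against WT mice on the normal diet, where both factors differ. Again 0 chaperone genes were called in prefrontal cortex, striatum and hippocampus (0.28%, 0.0826% and 0.0149% of all genes, or 0.0529%, 0.0301% and 0% higher and 0.227%, 0.0526% and 0.0149% lower), and 6, 1 and 0 had an unadjusted p below 0.05 (13%, 5.06% and 3.62% of all genes). DESeq2 and limma called 0 in each region. Prefrontal Dnajb9 came closest: the 5 WT mice had 46.5, 56.1, 60.1, 60.9 and 61.8 RPKM and the 5 KO mice 41.9, 42.4, 44.75, 45.7 and 48.6 RPKM, with 1 WT mouse within the KO range. The Dnajb9 log2 difference was -0.38 (SE 0.109, edgeR adjusted p = 0.122), and in a fit of these 2 groups alone it passed (adjusted p = 0.0299). Dnajc8 (-0.22) and Hspb11 (-0.40) followed in the prefrontal cortex, Hspa8 (-0.23), Dnajc28 (-0.17) and Dnajc25 (0.29) in the striatum, and Dnajc9 (0.17), Dnajc15 (0.20) and Dnajb11 (-0.14) in the hippocampus.

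The interaction of genotype and diet was called for 0 chaperone genes in each region (0% of all genes), with 2, 0 and 4 at an unadjusted p below 0.05 (3.17%, 1.7% and 9.45% of all genes) and 0 by DESeq2 and limma. The smallest p-values were those of Dnajc17 (0.83), Hspa1b (-0.73) and Dnajc24 (0.58) in the prefrontal cortex, Dnajc4 (-0.87), Hspa1b (-1.23) and Hspa5 (-0.27) in the striatum, and Dnajc8 (0.28), Dnajb6 (0.38) and Dnajb2 (-0.32) in the hippocampus. These values are log2 differences between the diet effects of KO and WT mice.

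The fitted diet and interaction values of striatal Hspa1b turned on 2 mice. The 5 KO mice on the normal diet had 0.327, 0.330, 0.608, 1.24 and 2.15 RPKM, and those on the lacking diet 0.256, 0.361, 0.402, 0.506 and 0.565. The WT mice had 0.164, 0.270, 0.518, 0.586 and 0.735 RPKM on the normal diet and 0.398, 0.423, 0.459, 0.494 and 0.731 on the lacking diet. Mice 267 and 268, both KO on the normal diet, stood above all 18 others, while their 3 companions lay within the range of the other groups. Without these 2 mice the diet difference in KO striatum went from -1.14 to -0.01 and the interaction from -1.23 to -0.11. The KO difference over both diets went from 0.43 to -0.14. The 2 mice were picked after their high values were seen, so that shifts in these directions were bound to occur and are no test. The same holds for other genes in which they were high.

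The same mice were high in more than 1 region and gene, but not throughout. In the hippocampus their Hspa1b was 4.60 and 3.45 RPKM, against 1.52 to 2.95 in the other 18 mice, and in the prefrontal cortex 2.84 and 2.21 against 0.846 to 2.25. Striatal Dnajb1 was 13.5 and 12.95 RPKM in them, against 6.59 to 11.03 in the others, and without them its diet difference in KO mice went from -0.28 to 0.02. Hippocampal Dnajb1 was 11.2 RPKM in mouse 267, above all others, and 9.46 in mouse 268, within their range of 4.41 to 9.60. Prefrontal Dnajb1 of both mice, 14.62 and 12.29 RPKM, lay within 9.721 to 15.67. Hspa1a of mouse 268 lay within the others' range in prefrontal cortex, striatum and hippocampus (1.381, 0.5365 and 1.042 RPKM). That of mouse 267 was above the others in striatum (1.263 against at most 0.7684 RPKM) and barely in prefrontal cortex (1.524 against 1.523). Its hippocampal Hspa1a was 1.838 RPKM, within the 0.7008 to 2.373 of the others. Hsph1 in the striatum was 86.03 and 83.9 RPKM against 62.9 to 86.2, and Hsp90ab1, Hspd1 and Dnaja1 of these mice lay within the others' range in the striatum. Both mice belonged to 1 group of 5. The hippocampal library of mouse 267 also had the highest summed level of 6 of 6 choroid plexus markers, 1687 CPM against a median of 60.6 in that region, but its striatal and prefrontal libraries had 17.0 and 2.61 CPM, within the ranges of 16.4 to 27.7 and 1.84 to 5.73 CPM there. The other 3 hippocampal groups also held libraries of up to 409, 1371 and 1165 CPM, and mouse 268 had 49.25 CPM. The summed level of 5 of 5 ependymal markers in the hippocampus was highest in both mice, at 23.07 CPM in mouse 267 and 24.82 CPM in mouse 268, against at most 19.46 CPM in the other 3 groups and a median of 13.81 CPM over the region. The part of these cells in the hippocampal values was not tested.

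**Figure D5:**
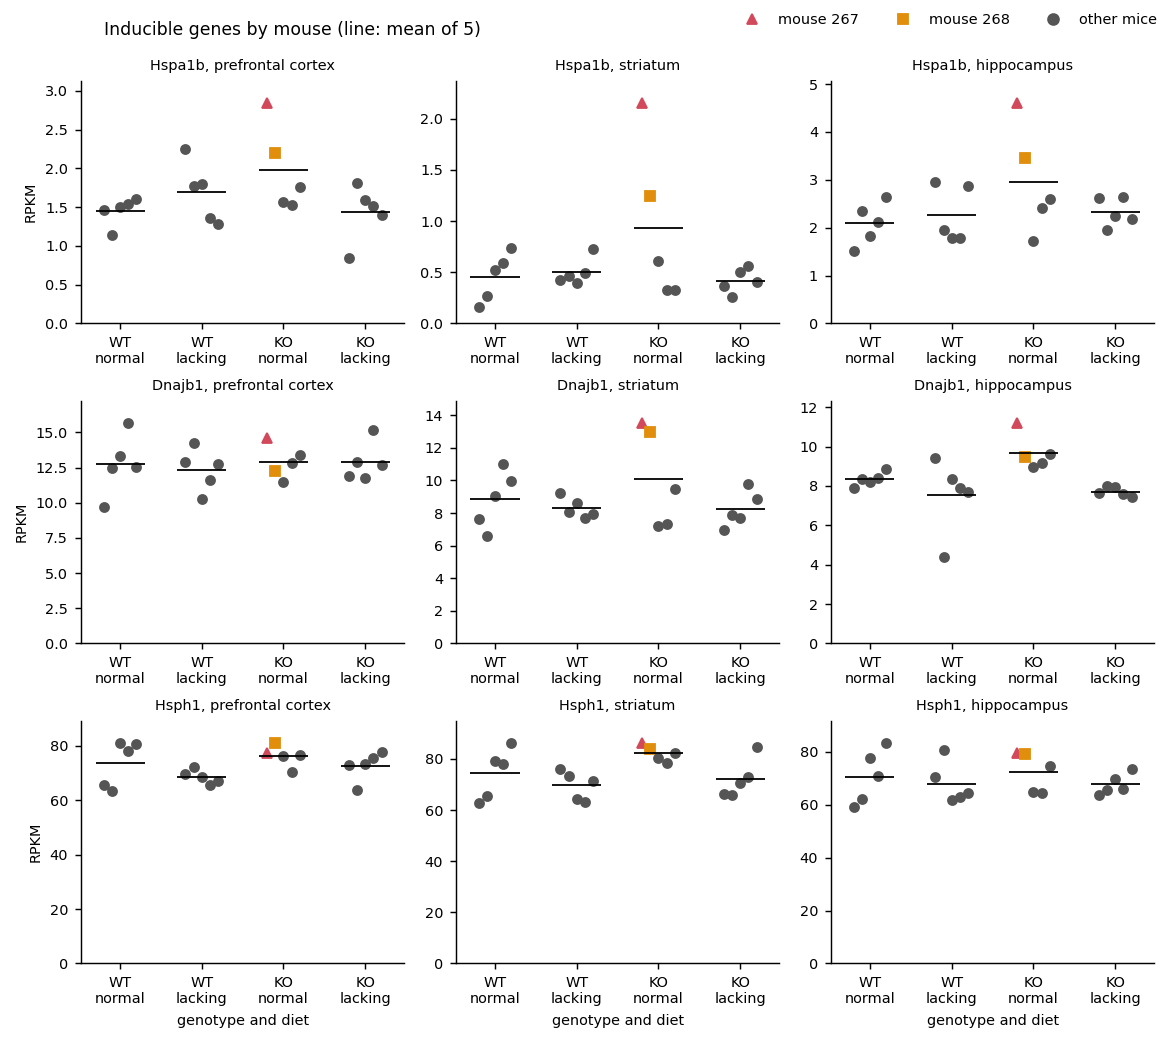
RPKM of Hspa1b, Dnajb1 and Hsph1 in each mouse, by region, genotype and diet, with black lines at the mean of 5 mice and mice 267 and 268 drawn as a triangle and a square. In the striatum Hspa1b of these KO mice on the normal diet reaches 2.15 and 1.24 RPKM, above the 0.164 to 0.735 of the other 18 mice, while Hsph1 of the 2 mice lies within the others' range there.

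One WT mouse on the lacking diet, mouse 226, stood apart in the hippocampus in another way. There it had the lowest Dnajb1 of 20 mice (4.41 RPKM) and the lowest Hspa8 (175 RPKM), but the highest Hsp90aa1 (424 RPKM), Hspa5 (97.3 RPKM), Hspd1 (80.9 RPKM) and Dnaja1 (31.5 RPKM). Its Dnajc21, at 20.1 RPKM, was also the highest in the region. Its Hspa5 was the highest in the striatum as well (103 RPKM), while in the prefrontal cortex its Hsp90aa1 ranked 9 of 20 and its Hspa5 15 of 20. Marker sums of its hippocampal library also lay at the ends of the region's range. They were the lowest for astrocytes (2759 CPM, region median 2970) and medium spiny neurons (60.27 CPM, median 82.3) and the highest for thalamus (186.0 CPM, median 148.7), while the choroid plexus sum was 63.73 CPM (median 60.6). Their part in these values was not tested. Low Hspa1b was seen in mouse 272, a WT mouse on the normal diet, which ranked 20 of 20 in striatum and hippocampus and 15 of 20 in the prefrontal cortex.

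No chaperone gene passed a test of whether the genotype or the diet difference varied between regions. For the KO difference over diets, edgeR called 0 genes of 62 for striatum against prefrontal cortex, hippocampus against prefrontal cortex and hippocampus against striatum (0%, 0.00718% and 0% of all genes), with 8, 4 and 4 at an unadjusted p below 0.05 (9.18%, 6.03% and 5.81% of all genes). The smallest p-values were those of Dnajc8 (0.29), Dnajb9 (0.32) and Dnajb14 (0.27) between striatum and prefrontal cortex, Dnajc30 (0.28), Dnajc8 (0.23) and Dnajb9 (0.27) between hippocampus and prefrontal cortex, and Dnajc30 (0.34), Dnajc1 (-0.33) and Dnajc15 (0.24) between hippocampus and striatum. These adjusted p-values in edgeR lay between 0.499 and 0.808. For the diet difference, 0 genes were called in all 3 pairs (0% of all genes), with 0, 0 and 1 at an unadjusted p below 0.05 (1.47%, 2.86% and 2.71% of all genes). There the smallest p-values were those of Dnajc17 (0.36), Dnajc25 (0.25) and Hspa14 (-0.14), then Hspb11 (0.33), Hspa14 (-0.16) and Dnaja2 (0.14), and then Hspb11 (0.35), Dnajc17 (-0.37) and Dnajb6 (0.21), in the same order of pairs. DESeq2 and limma called 0 in all of these comparisons.

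Spread between mice of 1 group differed from gene to gene. The SD of log2 CPM within groups was largest for Dnajb3 (0.44), Dnajc4 (0.41), Hspb6 (0.40), Hspb1 (0.40) and Hspa12b (0.39) among the tested genes, each with a median of at most 60 counts per library. Hspa1a (0.34) and Hspa1b (0.32) lay at percentiles 62.35 and 70.73 of the spread of genes of like abundance. Among better counted genes the SD was 0.27 for Dnajc21, against a median of 0.14 in genes of like abundance, 0.25 for Dnajb5 against 0.12 and 0.25 for Dnajc2 against 0.13. At the other end Hsp90ab1 varied by an SD of 0.058, Dnajc5 by 0.062 and Dnajc6 by 0.066.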

How the data were processed

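The authors deposited a table of raw counts per gene and a table of RPKM values for 60 libraries of 20 mice, 1 column per mouse and region. STAR 2.7.1a, HTSeq 0.9.1 and the build mm10 are named per the submitters' processing notes; strand use and the gene annotation were not given in the sources used here. Columns were matched to samples by their titles. Counts were tested with the quasi-likelihood test of edgeR 4.0.16 in R 4.3.3, with TMM factors, a low-count filter (filterByExpr, 10 counts and a total of 15), a mean per group, and Benjamini-Hochberg adjustment over all genes tested at 0.05. Each region was fitted on its 20 libraries, and regions were compared in 1 fit of all 60. The scripts were tested on simulated data.

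Alternatives were DESeq2 1.42.0, limma 3.58.1 on log2(RPKM + 1), library totals without TMM factors, no filter on low counts, RIN as a covariate, only the compared groups, leaving out each mouse and, for regions, the mouse as a block. A run without mice 267 and 268 was added after seeing the data. The same mouse gave all 3 regions per the labels, which pairs libraries between regions but not within one; deviations of the same mouse from its group means had mean correlations over genes of 0.0327, 0.0369 and 0.0709 for striatum with prefrontal cortex, hippocampus with prefrontal cortex and hippocampus with striatum.

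The genes named are 17 chosen by role or chromosome, those called or with the 3 smallest p-values in each comparison within a region or of effects between regions, up to 12 without overlap between regions, the 5 highest and 5 lowest levels and the 5 widest spreads; further genes were picked after their values were seen. Members and lists were chosen with earlier results of these data known. The upper limit given for genes without counts covers counting error only. SEs were worked back from the log2 fold change and the F statistic of the edgeR test. The 95% intervals were built from these SEs with a t quantile. They include the spread between mice and are approximate.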

Additional observations from a re-analysis of the deposited data

Results flagged for a closer look

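Genes named for the 3 smallest p-values of a comparison within a region were examined, as 37 pairs of gene and region. Of their 148 groups of 5 mice, 7 held a mouse far from the next for the range of its group by Dixon's criterion. Chance gives about 1 in 20 groups, or 7.4 here. In the hippocampus, Dnajb1 was 11.19 RPKM in mouse 267 (KO, normal diet; others 8.97 to 9.604), Dnajc12 was 2.573 RPKM in mouse 381 (KO, normal diet; others 1.71 to 1.914) and Dnajc15 was 62.36 RPKM in mouse 242 (KO, lacking diet; others 49.22 to 52.54). Hippocampal Hspb8 was 3.44 RPKM in mouse 226 (WT, lacking diet), below the 6.755 to 7.967 of the others. Among striatal WT libraries with the lacking diet, Dnajc30 was 16.14 RPKM in mouse 241 (others 10.84 to 11.68) and Hspa1b was 0.7309 RPKM in mouse 259 (others 0.3984 to 0.4944). Prefrontal Hspa14 was 3.933 RPKM in mouse 339 (KO, lacking diet; others 2.965 to 3.207).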

How the results depend on the processing

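For KO against WT in the prefrontal cortex, the count of called chaperone genes went from 0 to 1 in DESeq2, 1 with RIN as a covariate and 2 without mice 267 and 268, and lay between 0 and 3 on leaving out 1 mouse, with 3 without mouse 226. For KO on the lacking against WT on the normal diet there, it was 1 with only the compared groups. The cause was not tested. With the mouse as a replicate block, 37, 35 and 36 genes differed between striatum and prefrontal cortex, hippocampus and prefrontal cortex, and hippocampus and striatum. No paired analysis was possible within a region because its groups hold different mice.

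Without mice 267 and 268, KO differences turned to -0.0083 (Hspa1a) and -0.0611 (Hspa1b) in the prefrontal cortex and -0.0255 and -0.1431 in the striatum, the striatal diet difference of Dnajb1 in KO mice to 0.0161, and prefrontal Hsp90ab1 for KO to -0.0013 (-0.0026 with RIN). Without TMM factors and in limma, the signs turned for Hspb1 between hippocampus and prefrontal cortex (0.0418 and 0.0256), and between hippocampus and striatum for Hspb1 (0.0398 and 0.0249), Hspd1 (0.0466 and 0.0422) and Dnajc5 (0.0581 and 0.0573). Dnaja1 between hippocampus and prefrontal cortex was -0.0301 with RIN. Leaving out 1 mouse gave -0.0153 to 0.0333 for Dnaja1 between hippocampus and prefrontal cortex, -0.0116 to 0.0235 for Hsp90ab1 for KO in the prefrontal cortex, -0.0231 to 0.0061 for Hsp90ab1 between striatum and prefrontal cortex, and -0.1513 to 0.081 for Hspa1a for KO in the hippocampus. Hspb1 gave -0.1118 to 0.1351, -0.1919 to 0.0529 and -0.1506 to 0.1326 for hippocampus against prefrontal cortex, hippocampus against striatum and striatum against prefrontal cortex. Of 3745 alternative values for 140 single-gene results, 3655 kept direction and side of the threshold. Results that passed in neither fit count among these, and 2800 of the values come from leaving out 1 mouse, so high agreement was likely from the start. Low counts limit Hspa1a, Hspa1b, Hspb1 and Hspb3, and shared sequence limits Hspa1a and Hspa1b further.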
